A study of Zanthoxylum armatum with 15 samples.

Results

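Fruits of Zanthoxylum armatum, the green Sichuan pepper, were compared with its leaf buds, unigene by unigene, in 6 RNA-seq libraries. A unigene here is the longest transcript that the study's de novo assembly gave for a gene. The comparison used 3 fruit libraries and 3 leaf bud libraries, which are 2 of the 5 organs of the study, and the 57488 unigenes, of 111318 in the deposited tables, that passed a filter on low counts. That filter was run over all 15 libraries of the 5 organs, so some unigenes tested have few or no counts in fruits and leaf buds. Each library was made from tissue of 3 plants mixed together, and per the study's methods the material was taken 60 days after fertilization. The labels give no treatment, genotype or cultivar, and the same month of sampling for every organ. The study's methods describe the plants as 3 years old and of the variety 'Hanyuan putaoqing'. Because plants were mixed within a library, the p-values below measure the spread between mixtures and not that between single plants.

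Levels are given as CPM, the counts of a unigene relative to the total of its library, scaled by trimmed mean of M values (TMM) factors so that libraries of different composition can be set side by side. Fold changes are log2 values of fruits over leaf buds from edgeR's quasi-likelihood F test, with p-values adjusted by Benjamini-Hochberg over all 57488 unigenes. A unigene was called a differentially expressed gene (DEG) when its adjusted p was under 0.05 and its log2 fold change was over 1 in size. By that rule 29.1% of the unigenes tested were DEGs, 13.9% higher in fruits and 15.1% lower in fruits, and the fruit and leaf bud libraries did not overlap for 55.9% of them, with every fruit library above every leaf bud library for 27.7% and below for 28.2%. The counts given below for groups of genes are to be read against these percentages. Their base includes unigenes that passed the filter only through other organs, and how many these are was not counted. Enzyme names below come from pathway rows and sets that the study chose for organ patterns in these same libraries. Counts of unigenes by enzyme name therefore describe those unigenes and are no independent evidence of a direction.

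The peel of pepper fruits in the citrus family carries oil glands that store volatile terpenes, and the numbing principle of the genus is a set of fatty acid amides, in which an unsaturated acyl chain is joined to a small amine. Terpenes are built from isopentenyl diphosphate, which plants make both by the mevalonate pathway in the cytosol and by the methylerythritol phosphate (MEP) pathway in plastids. Prenyl synthases join these units, and terpene synthases turn the products into monoterpenes and sesquiterpenes. Leaf buds hold dividing and expanding cells of the shoot, where DNA replication, auxin transport and cytokinin response are known to be active.

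The study designed primer pairs for 24 unigenes, all of which were higher in fruits than in leaf buds here. The study picked these unigenes from its own analysis of the same libraries, so that count is not independent evidence of their direction. No sequence of the unigenes themselves was read here, and the pairs of 6 unigenes whose values carry the results below are given as the study lists them. Whether a pair matches only its own unigene was not tested. Each primer is written from its 5′ to its 3′ end, and capitals mark the last 5 bases, at the 3′ end from which the polymerase extends.
Chalcone synthase (CHS) Cluster-12235.42665 forward: cttatccagaaccgtgcCTCAG
Chalcone synthase (CHS) Cluster-12235.42665 reverse: aagtataaacaggacgcttGGACC
Terpene synthase TPS03 Cluster-12235.42010 forward: gcaggaagatacttacgcAGGTC
Terpene synthase TPS03 Cluster-12235.42010 reverse: tttcatgtaatctggaagCGGTT
Prenyl synthase GGPPS12 Cluster-12235.40340 forward: gcctagtcttattcccaaatCCAAG
Prenyl synthase GGPPS12 Cluster-12235.40340 reverse: gtgttatctcaaccatagcCCGTA
Aromatic aldehyde synthase (AAS) Cluster-12235.42500 forward: tgctggcagtgcatgtaTTTGT
Aromatic aldehyde synthase (AAS) Cluster-12235.42500 reverse: cgggtcagtactcagagctTTGAC
Acyl-ACP desaturase AAD5 Cluster-12235.42753 forward: taatgtacgatggcgaggATGAT
Acyl-ACP desaturase AAD5 Cluster-12235.42753 reverse: ctaattcttggaggcaaacCACAG
1-deoxy-D-xylulose 5-phosphate synthase (DXS) Cluster-12235.46034 forward: atactaatggaaggcgataGGGTG
1-deoxy-D-xylulose 5-phosphate synthase (DXS) Cluster-12235.46034 reverse: ccatccagaatgccacttaaACTTA

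The 6 libraries held between 19173523 and 24081708 estimated counts each. Libraries of the same organ agreed closely, with Pearson's r across unigenes of log2(CPM + 1) from 0.989 to 0.993 among fruit libraries and from 0.983 to 0.991 among leaf bud libraries, against 0.852 to 0.875 between the organs. Unigenes are not independent replicates, so these values only describe the libraries. Leaf bud library 1 stood apart in 1 respect, since it held 53 unigenes with 20 or more counts that had none in any of the other 14 libraries, against 12 in leaf bud library 3, 3 in leaf bud library 2 and 2 in the 3 fruit libraries together. Without leaf bud library 1 the comparison gave 8088 unigenes higher and 8096 lower.

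Of the 57488 unigenes, 8016 were higher in fruits, 8691 were lower in fruits and 40781 were not called. The median log2 fold change over all unigenes was -0.05, that of the unigenes called higher was 1.97 and that of the unigenes called lower was -2.33. Scaling by library totals alone moved the median over all unigenes to -0.42 and the calls to 5805 higher and 13098 lower, so the near balance of directions, with 48.0% of DEGs higher in fruits, depends on the scaling, and the share under library totals was 30.7%. DESeq2 size factors left it at 47.7%. The libraries of both organs did not overlap for 97.9% of the unigenes called higher and for 92.6% of those called lower.

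The unigenes called higher held 38.7 to 40.9% of the counts of the fruit libraries and 9.79 to 11% of those of the leaf bud libraries. The unigenes called lower held 18.6 to 19.9% of the counts of the leaf bud libraries and 2.91 to 3.12% of those of the fruit libraries. A mean of at least 100 CPM in fruits was reached by 743 of the unigenes called higher, while 304 of those called lower reached it in leaf buds. In whole organs, a lower share of cells that express a gene and less RNA of it per cell cannot be told apart, and this holds for every value below.

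Calls with a large fold change were more often lower than higher in fruits. A log2 fold change over 5 was found for 664 unigenes higher in fruits, and one under -5 for 1166 lower in fruits. Among abundant unigenes the balance was the other way. A mean of at least 100 CPM in fruits and under 1 CPM in leaf buds was found for 29 unigenes called higher. The reverse was found for 16 called lower. Of the unigenes called higher, 314 (3.92%) had no count in any leaf bud library, and of those called lower, 523 (6.02%) had none in any fruit library. The unigenes with the most extreme values carry no enzyme name in the annotation used here. Cluster-12235.42671 stood at 7354, 4314 and 5783 CPM in fruit libraries 1, 2 and 3 and had no count in the leaf bud libraries, at least 149644-fold higher when 3 counts over the leaf bud libraries are taken as the floor. Cluster-12235.42593 followed at 3057, 1551 and 1683 CPM in fruits with no count in leaf buds, at least 53409.7-fold higher. In the other direction, Cluster-12235.11934 had no count in fruits and 775, 489 and 498 CPM in leaf buds, at least 11250.5-fold lower in fruits, and Cluster-12235.70590 had none in fruits and 408, 300.3 and 299.7 CPM in leaf buds, at least 6433-fold lower. None of these 4 unigenes had a count in mature leaves or roots, and in stems Cluster-12235.11934 averaged 15.7 CPM and Cluster-12235.70590 9.35 CPM.

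**Figure D1:**
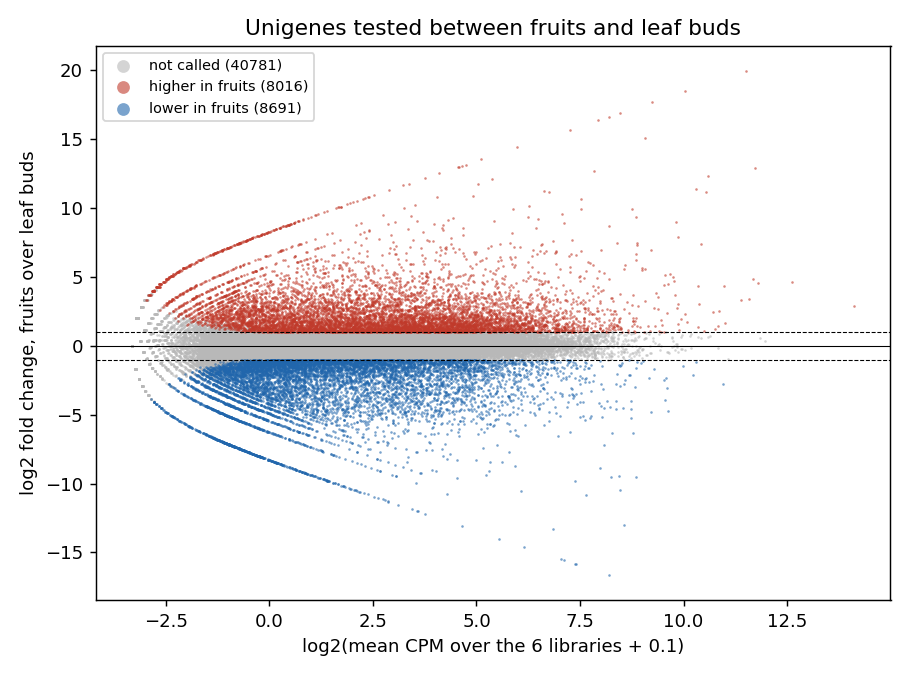
Log2 fold change of fruits over leaf buds (y axis) against the log2 of the mean CPM over the 6 libraries plus 0.1 (x axis), 1 point for each of the 57488 unigenes tested. Red points are the 8016 unigenes called higher in fruits, blue points the 8691 called lower and grey points the 40781 not called; dashed lines mark log2 fold changes of 1 and -1, and the curved edges on the left are unigenes with no count in 1 of the organs.

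Per unigene length, as FPKM, which divides a unigene's fragments by its length and by the library's depth, the most abundant unigenes of the fruits were Cluster-12235.42689 with a mean level of 52910.1 ± 4809.9 FPKM (SD, n = 3), Cluster-12235.42671 with 46589 ± 10462 FPKM and Cluster-12235.42501 with 43457 ± 5332 FPKM. All 3 were higher in fruits, with log2 fold changes of 4.59, 19.95 and 4.85, of which the second is no bound because leaf buds had no count. The most abundant unigenes of the leaf buds were Cluster-12235.42577 with 18908 ± 2719 FPKM, Cluster-12235.42851 with 13535 ± 1760.1 FPKM and Cluster-12235.42636 with 7848 ± 1538 FPKM. The first 2 of these were not called, at log2 fold changes of 0.38 and 0.58, and the last was higher in fruits at 2.45. None of the 6 carried an enzyme name in the annotation used here, so the most abundant transcripts of both organs are left unnamed.

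Each terpenoid step covered by the study's set had unigenes higher in fruits. The study's terpenoid set of unigenes with an Arabidopsis (TAIR) name held 47 members, and all 47 were higher in fruits, with a median log2 fold change of 3.41 beside -0.05 over all unigenes, and 3 of the 47 are aromatic aldehyde synthases that are described further on. The study chose these unigenes on the same libraries for being high in fruits, so the count describes them and is no independent evidence of a direction. The steps differed in the size of the change.

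In the mevalonate pathway all 7 unigenes were higher, with a median log2 fold change of 1.17. HMG-CoA reductase, the rate-limiting enzyme of that pathway, moved most, and its single unigene Cluster-12235.40934 stood at 537, 645 and 530.0 CPM in fruits and 44.8, 59.1 and 52.2 CPM in leaf buds. The lowest fruit library lay far above the highest leaf bud library, with a log2 fold change of 3.45 ± 0.12 (SE) and an adjusted p of 6.28e-15. The other 6, which encode acetoacetyl-CoA thiolase, HMG-CoA synthase, mevalonate kinase and phosphomevalonate kinase, had log2 fold changes from 1.11 to 1.44. Of these, 5 fell below the fold change threshold under library totals alone, at 0.75 for Cluster-12235.42348, 0.77 for Cluster-12235.37003, 0.79 for Cluster-12235.37800, 0.80 for Cluster-12235.28045 and 0.89 for Cluster-12235.37004.

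The MEP pathway moved further, with 17 of 17 unigenes higher and a median log2 fold change of 2.97. DXS, which condenses pyruvate with glyceraldehyde 3-phosphate in its first step, had 7 such unigenes, with log2 fold changes from 1.47 to 5.60. Their summed level was 1017 ± 143 FPKM in fruits and 76.0 ± 5.86 FPKM in leaf buds (SD, n = 3). The most abundant, Cluster-12235.46034, stood at 556, 645 and 514 CPM in fruits and 18.6, 21.9 and 18.7 CPM in leaf buds, a log2 fold change of 4.86 ± 0.15 (SE) with an adjusted p of 1.82e-15. Cluster-12235.38538 changed most, from 1.65, 1.65 and 1.17 CPM in leaf buds to 65.5, 83.6 and 68.4 CPM in fruits, a log2 fold change of 5.60 ± 0.20 (SE). The leaf bud and fruit libraries were separate for all 7.

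HDS, 4-hydroxy-3-methylbut-2-enyl diphosphate synthase, makes the substrate of the last MEP step and had 6 unigenes, with log2 fold changes from 2.24 to 3.59 and a summed level of 1497 ± 205 FPKM in fruits against 219 ± 9.6 FPKM in leaf buds. HDR, the reductase of that last step, had 1 unigene, Cluster-12235.50616, at 105, 128 and 103 CPM in fruits and 4.69, 6.59 and 6.26 CPM in leaf buds, a log2 fold change of 4.26 ± 0.17 (SE). The kinase step (CDP-ME kinase, Cluster-12235.31323) changed least within the pathway apart from Cluster-12235.31776 of DXS, at 128, 137 and 119 CPM in fruits and 43.4, 45 and 45.7 CPM in leaf buds, a log2 fold change of 1.52 ± 0.10 (SE). Another unigene with the DXS name, outside that set, Cluster-12235.68202, went the other way, from 51.7, 54.8 and 66 CPM in leaf buds to 10.4, 10.01 and 9.89 CPM in fruits, a log2 fold change of -2.51 ± 0.16 (SE) with an adjusted p of 6.16e-11.

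Among the prenyl synthases, which chain the units to the precursors of terpenes, all 4 unigenes were higher, with log2 fold changes from 1.85 to 7.30. Cluster-12235.40340, annotated as GGPPS12, the small subunit that in Arabidopsis binds a catalytic subunit, stood at 939.8, 1026 and 819 CPM in fruits and 6.64, 7.11 and 3.92 CPM in leaf buds. Its log2 fold change was 7.30 ± 0.26 (SE) and its adjusted p 8.02e-14. The catalytic subunit, named GGPPS11 and LSU, had 2 unigenes, Cluster-12235.36761 at 13.3, 15.9 and 13.2 CPM in fruits and 0.713, 0.374 and 1.06 CPM in leaf buds, and Cluster-12235.57254 at 46.4, 56 and 47.4 CPM in fruits and 11.9, 13.8 and 15.9 CPM in leaf buds. Their log2 fold changes were 4.30 ± 0.29 (SE) and 1.85 ± 0.17 (SE).

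The terpene synthases had the highest median of the terpenoid steps, 5.31, with log2 fold changes from 3.45 to 7.65 over 10 unigenes. Limonene synthase, a name that rests here on the enzyme number, had 2 unigenes with a summed level of 2953 ± 255 FPKM in fruits and 27 ± 5.3 FPKM in leaf buds. Of these, Cluster-12235.42010 carries the Arabidopsis name TPS03 and Cluster-12235.42000 no full Arabidopsis name, and their products were not tested. Cluster-12235.42010 stood at 2607, 3007 and 2584 CPM in fruits and 18.5, 16.2 and 13.3 CPM in leaf buds, a log2 fold change of 7.42 ± 0.23 (SE) with an adjusted p of 1.07e-15. Cluster-12235.42000 stood at 1240.0, 1278 and 1040.0 CPM in fruits and 12.1, 9.02 and 7.6 CPM in leaf buds, a log2 fold change of 6.95 ± 0.17 (SE). Both had means below every leaf bud library in the other organs too, with means of 11.4 and 5.09 CPM in stems, 8.72 and 2.99 CPM in mature leaves, and 0.0512 and 0 CPM in roots.

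Germacrene D synthase, which makes a sesquiterpene, had 5 such unigenes under 2 enzyme numbers. The most abundant, Cluster-12235.42686, stood at 1580.3, 1771 and 1459 CPM in fruits and 36.9, 43.8 and 45.7 CPM in leaf buds, a log2 fold change of 5.25 ± 0.12 (SE). Cluster-12235.34750 had the largest change of the set, from 1.39, 1.38 and 0.587 CPM in leaf buds to 233, 247 and 203 CPM in fruits, a log2 fold change of 7.65 ± 0.23 (SE) with an adjusted p of 6.58e-15. A further unigene of that enzyme name, Cluster-12235.40863, was not called, at 52.6, 61.2 and 49.8 CPM in fruits and 39.4, 48.8 and 55.6 CPM in leaf buds, with a log2 fold change of 0.19 ± 0.14 (SE), an adjusted p of 0.278 and a value of -0.18 under library totals alone. The isoprene synthase name covered 3 unigenes at 3.46 to 3.79, of which Cluster-12235.37077 also carries the Arabidopsis name TPS03. Side branches changed less, with Cluster-12235.55818 (CYP82G1, which in Arabidopsis makes homoterpenes) at 3.40 ± 0.16 (SE) and farnesol kinase Cluster-12235.35963 at 1.05 ± 0.34 (SE), whose libraries nearly met at 3.62, 2.57 and 1.44 CPM in fruits against 1.16, 1.24 and 1.25 CPM in leaf buds and whose call was lost without fruit library 1, at 0.73, with a replicate block in the 6 libraries, at 0.98, and under library totals alone, at 0.68.

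**Figure D2:**
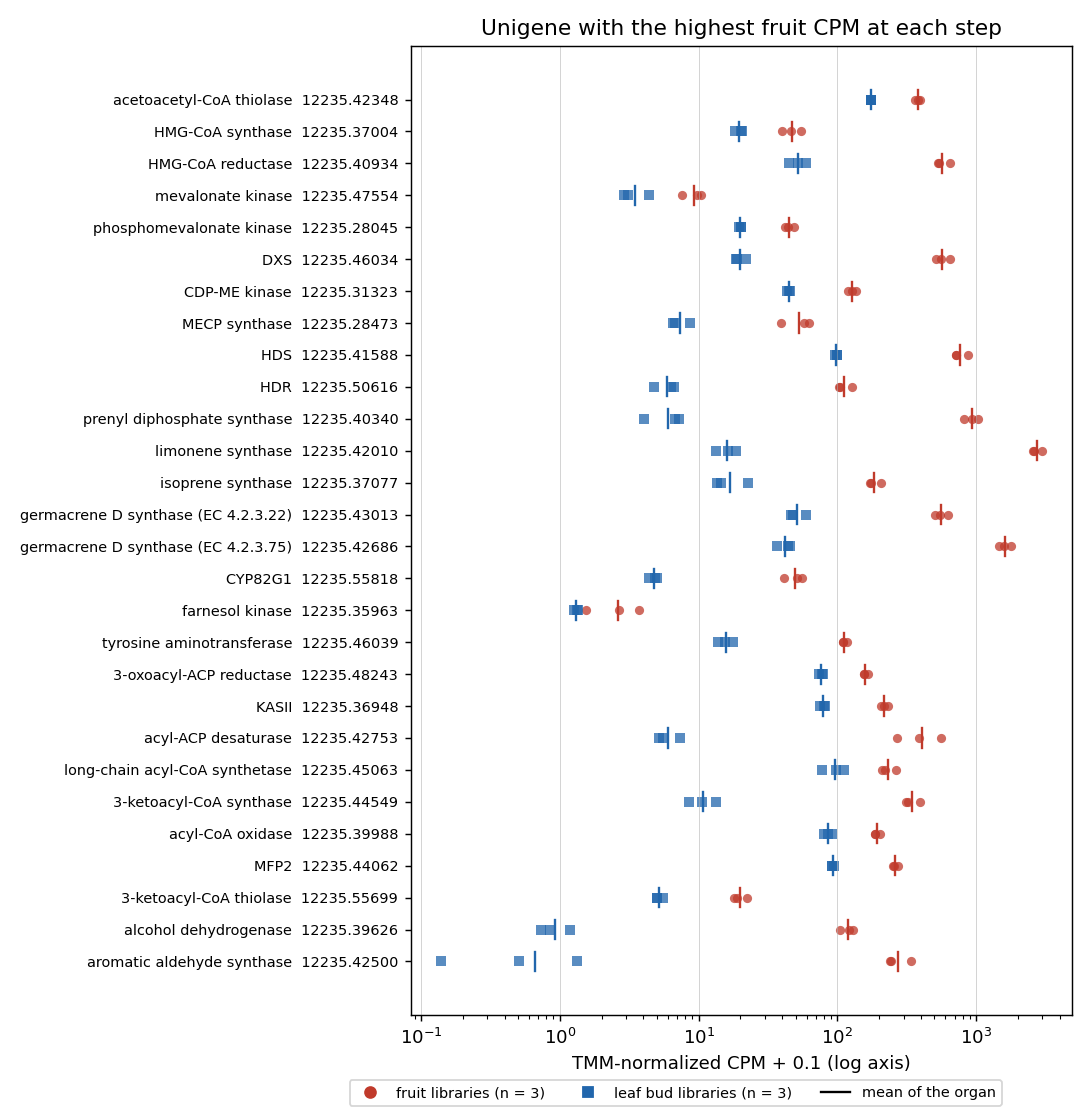
TMM-normalized CPM plus 0.1 (x axis, log scale) in each fruit library (red circles, n = 3) and leaf bud library (blue squares, n = 3) for the unigene with the highest CPM in fruits at each terpenoid and fatty acid step, with a vertical bar at the mean of each organ. The steps run from the mevalonate pathway at the top to fatty acid degradation and the aromatic aldehyde synthase at the bottom, and the gap between the organs is widest for the prenyl diphosphate synthase, limonene synthase, alcohol dehydrogenase and aromatic aldehyde synthase.

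Pathway lists that the study drew from the annotation of the whole assembly, and not for a pattern, gave a more mixed picture, and 12 of these lists were held whole while of the others only some members were held. In the complete list of monoterpenoid biosynthesis, 10 of 11 unigenes were tested, 4 were higher and 2 were lower, with a median log2 fold change of 0.75. Beside both limonene synthase unigenes, Cluster-12235.64198 and Cluster-12235.64197 were higher at 1.46 and 1.26, while Cluster-12235.503 had no count in fruits and 1.84, 1.42 and 1.06 CPM in leaf buds, at least 27.6-fold lower in fruits. Leaving out any 1 of the 6 libraries gave 5 or 6 members higher. Of the 19 tested members held of the terpenoid backbone list, 12 were higher and 2 lower, with a median of 1.44. Diterpenoid members were split, with 5 higher and 4 lower of 19, and sesquiterpenoid and triterpenoid members gave 6 higher and 2 lower of 15, with a median of 0.19 that turned to -0.18 under library totals alone.

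Among the carotenoid enzymes, all 3 unigenes of phytoene synthase, which joins 2 geranylgeranyl units at the entry of that pathway, were higher. Cluster-12235.42859 stood at 132, 151 and 119 CPM in fruits and 4.5, 4.94 and 5.09 CPM in leaf buds, a log2 fold change of 4.79 ± 0.17 (SE). Beta-carotene hydroxylase Cluster-12235.52217 stood at 16, 11.7 and 19.1 CPM in fruits and 0.60, 0.412 and 0.274 CPM in leaf buds, a log2 fold change of 5.16 ± 0.34 (SE). NCED, which cleaves carotenoids towards abscisic acid, had 1 unigene, Cluster-12235.35635, at 32.5, 40.3 and 34.2 CPM in fruits and 7.28, 7.67 and 6.3 CPM in leaf buds, a log2 fold change of 2.33 ± 0.14 (SE). These names come from pathway rows that the study reported for fruits. In the part held of the annotation list for carotenoids, 4 of 15 tested members were higher and 1 was lower.

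All 20 unigenes of the study's fatty acid synthesis and elongation set and all 14 of its degradation set were higher in fruits, with median log2 fold changes of 1.84 and 1.75, and the caution on how the study chose them holds here too. The part held of the annotation list for fatty acid biosynthesis, which was not drawn for a pattern, gave 3 higher, 2 lower and 10 not called of 15 tested members, with a median of 0.26 that turned to -0.11 under library totals alone. Acyl-ACP desaturase, which sets the first double bond into a saturated chain in the plastid, had 2 unigenes annotated as AAD5 that differed in how much they changed. Cluster-12235.42753 stood at 559, 268 and 389 CPM in fruits and 5.1, 7.19 and 5.44 CPM in leaf buds, a log2 fold change of 6.10 ± 0.24 (SE) with an adjusted p of 3.11e-14. Cluster-12235.43479 stood at 430.3, 371 and 369.5 CPM in fruits and 106, 119 and 101 CPM in leaf buds, a log2 fold change of 1.84 ± 0.11 (SE). Per length, Cluster-12235.42753 had the higher mean level in fruits, 399 ± 133 against 96.2 ± 6.11 FPKM, and the lower one in leaf buds, 7.52 ± 1.38 against 34.5 ± 2.1 FPKM (SD, n = 3).

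The plastid condensing enzyme KASII changed little by comparison, with Cluster-12235.36948 at 216, 231 and 207 CPM in fruits and 79.5, 81.4 and 74.4 CPM in leaf buds, a log2 fold change of 1.47 ± 0.09 (SE), and Cluster-12235.47316 at 1.34 ± 0.12 (SE), which was 0.97 under library totals alone. 3-oxoacyl-ACP reductase (FabG), which reduces the chain in each round of synthesis, had 4 unigenes from 1.06 to 4.08. The highest of these, Cluster-26137.0, was also the scarcest, at 0.603, 1.5 and 0.721 CPM in fruits and 0, 0.112 and 0.0392 CPM in leaf buds, and the most abundant, Cluster-12235.48243, stood at 1.06 and at 0.69 under library totals alone. Long-chain acyl-CoA synthetase, which activates free fatty acids, had 6 unigenes from 1.28 to 2.12, among them Cluster-12235.44155 (LACS6) at 42.7, 59.1 and 53.4 CPM in fruits and 12.1, 13.4 and 10.4 CPM in leaf buds and Cluster-12235.45063 (LACS1) at 1.28, or 0.91 under library totals alone. FAD2, the desaturase that sets the second double bond, had 1 unigene, Cluster-12235.42440, at 895, 787 and 1095 CPM in fruits and 358, 350.2 and 337 CPM in leaf buds, a log2 fold change of 1.41 ± 0.11 (SE).

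The enzymes of fatty acid breakdown gave a close set of values with 1 exception. Acyl-CoA oxidase, which opens each round of peroxisomal beta-oxidation, had Cluster-12235.36110 at 70.1, 56.8 and 74 CPM in fruits and 16.5, 13.3 and 12.8 CPM in leaf buds with a log2 fold change of 2.24 ± 0.12 (SE) and Cluster-12235.39988 at 1.17 ± 0.09 (SE), or 0.80 under library totals alone. MFP2 had 3 unigenes from 1.40 to 1.69, and the thiolase Cluster-12235.55699 (KAT2) had a log2 fold change of 1.95 ± 0.16 (SE). The lowest MFP2 value, that of Cluster-12235.45078, rests on under 3 CPM in every library and its call was lost without fruit library 1, fruit library 2 or leaf bud library 2, at 1.06 to 1.38, and under library totals alone, at 1.02 with an adjusted p of 0.0845. The exception was alcohol dehydrogenase Cluster-12235.39626 (ADH1), which turns aldehydes and alcohols into one another, at 122, 129 and 105 CPM in fruits and 0.751, 1.09 and 0.626 CPM in leaf buds, a log2 fold change of 7.16 ± 0.26 (SE) with an adjusted p of 1.17e-14. Among the members held of the annotation list for fatty acid degradation, 7 of 13 tested members were higher and 1 was lower, with a median of 1.12, while fatty acid elongation gave 2 higher and 4 lower of 16.

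Surface lipid genes changed strongly, and in both directions. CER1, which makes the alkanes of cuticular wax, had 7 unigenes and all 7 were higher, with log2 fold changes from 3.02 to 3.91, for example Cluster-12235.41102 at 40.2, 43.2 and 51.2 CPM in fruits and 4.2, 2.92 and 1.8 CPM in leaf buds. Unigenes of CER1 and of the families that follow carry a name only through sets that the study chose for organ patterns in these libraries. Their counts are therefore no independent evidence of a direction. 3-ketoacyl-CoA synthase (KCS), which elongates very long chains, had 8 tested unigenes, 6 higher and 2 lower. Cluster-12235.44549 (KCS6) rose from 13.3, 10.5 and 8.42 CPM in leaf buds to 324, 313 and 394 CPM in fruits, a log2 fold change of 5.0 ± 0.15 (SE). Cluster-12235.57397 fell to 0, 0.14 and 0.206 CPM in fruits from 47.9, 37.9 and 29.5 CPM in leaf buds, a log2 fold change of -8.24 ± 0.45 (SE) with an adjusted p of 4.07e-12. Cluster-12235.10961 had no count in fruits and 7.28, 4.27 and 3.88 CPM in leaf buds, at least 98.6-fold lower in fruits.

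Fatty acyl-CoA reductase (FAR), which makes wax alcohols, likewise held Cluster-12235.39471 at 46.1, 43.5 and 34.7 CPM in fruits and 0.263, 0.187 and 0.0783 CPM in leaf buds, a log2 fold change of 7.82 ± 0.35 (SE), beside Cluster-12235.10179 at 4.04, 4.4 and 4.17 CPM in fruits and 18.8, 25 and 14.8 CPM in leaf buds, a log2 fold change of -2.21 ± 0.19 (SE). Glycerol-3-phosphate acyltransferase (GPAT), whose land plant members serve cutin and suberin, held Cluster-12235.5394 at 6.33, 6.32 and 8.92 CPM in fruits and 0.15, 0.0749 and 0 CPM in leaf buds, and Cluster-12235.5662 with no count in fruits and 6.12, 5.46 and 5.83 CPM in leaf buds, at least 111-fold lower in fruits. Both families therefore supplied a fruit member and a leaf bud member with libraries that did not overlap. Of the members held of the annotation list for cutin, suberin and wax, 10 of 18 tested members were higher and 3 lower, with a median of 2.62.

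Oxylipin genes leaned towards the fruits. In the part held of the alpha-linolenic acid list, which covers the route to jasmonate, 11 of 16 tested members were higher and 1 was lower, with a median of 1.44. Jasmonate O-methyltransferase had 2 unigenes, both higher, and Cluster-12235.46490 stood at 172, 183 and 149 CPM in fruits and 9.53, 12.1 and 7.44 CPM in leaf buds, a log2 fold change of 4.12 ± 0.17 (SE). 12-oxophytodienoate reductase (OPR) had 2 higher and 1 lower, and Cluster-12235.48911 stood at 13.3, 13.1 and 9.43 CPM in fruits and 1.8, 1.38 and 1.57 CPM in leaf buds. The lipoxygenases named LOX2S were split, with 3 of 7 higher and 1 lower, the last being Cluster-12235.67608 at 0, 0.0468 and 0.0515 CPM in fruits and 3.19, 1.91 and 2.66 CPM in leaf buds.

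The largest change of any unigene with an enzyme name was that of a chalcone synthase. CHS joins an activated hydroxycinnamic acid with malonyl units in the first committed step of flavonoid synthesis, and related type III polyketide synthases can share its annotation. Cluster-12235.42665 stood at 7764, 4841 and 7843 CPM in fruit libraries 1, 2 and 3 and at 1.13, 0.786 and 0.783 CPM in leaf bud libraries 1, 2 and 3. The gap between the organs spanned more than 3 orders of magnitude, with a log2 fold change of 12.88 ± 0.32 (SE) and an adjusted p of 8.82e-17. Its mean was under 1 CPM in mature leaves, roots and stems as well, at 0.0378, 0.0422 and 0.820 CPM.

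The 8 tested unigenes named CHS did not move as 1 family, since 4 were higher and 4 lower in fruits. Cluster-12235.52890 stood at 103, 131 and 92.7 CPM in fruits and 4.69, 4.94 and 5.33 CPM in leaf buds, and Cluster-12235.53197 at 147, 159 and 129 CPM in fruits and 14.6, 15.8 and 18.3 CPM in leaf buds, with log2 fold changes of 4.45 ± 0.18 (SE) and 3.16 ± 0.14 (SE). In the other direction Cluster-12235.10774 stood at 0.663, 0.749 and 0.464 CPM in fruits and 28.3, 31.2 and 31.9 CPM in leaf buds, a log2 fold change of -5.59 ± 0.28 (SE) with an adjusted p of 9.85e-13. Unigenes of 1 family can share reads where their sequences are alike, and which program counted the reads is not stated, so the split between family members is less certain than a family total.

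The part held of the annotation list for flavonoid biosynthesis gave 7 higher and 4 lower of 19 tested members, with a median of 0.29 that turned to -0.06 under library totals alone, and the complete anthocyanin list gave 3 higher and 1 lower of 12. Flavonol synthase had 2 unigenes, both higher, with Cluster-12235.39242 at 428, 451 and 348 CPM in fruits and 85.2, 66 and 60.8 CPM in leaf buds, a log2 fold change of 2.53 ± 0.15 (SE). Dihydroflavonol reductase (DFR), Cluster-12235.39180, stood at 61.3, 44 and 36.7 CPM in fruits and 392, 285 and 272 CPM in leaf buds, a log2 fold change of -2.74 ± 0.19 (SE) with an adjusted p of 7.36e-10. Anthocyanidin synthase (ANS) Cluster-12235.40481 stood at 35.4, 24 and 20.9 CPM in fruits and 700.4, 511 and 492 CPM in leaf buds, a log2 fold change of -4.41 ± 0.19 (SE), and the other ANS unigene, Cluster-12235.44691, was lower too, at -1.63. Anthocyanidin reductase (ANR) Cluster-12235.39469, which opens the tannin branch, stood at 204, 110.1 and 87.5 CPM in fruits and 659.5, 499 and 468 CPM in leaf buds, a log2 fold change of -2.02 ± 0.21 (SE). For these 4 unigenes of DFR, ANS and ANR every fruit library lay below every leaf bud library, and the enzymes of this paragraph were picked out after their values had been seen. Flavonoid 3′,5′-hydroxylase (CYP75A) Cluster-12235.31526, which feeds the anthocyanin route, was called higher, at 1.92, on uneven fruit libraries that are given further on. Flavanone 3-hydroxylase Cluster-12235.38484, upstream of both branches, was not called at -0.79 ± 0.23 (SE), although its libraries did not overlap.

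Phenylpropanoid enzymes on the way to lignin had unigenes in both directions. Of 5 tested unigenes of cinnamyl-alcohol dehydrogenase (CAD), which makes monolignols, 2 were higher in fruits and 1 was lower. The CAD unigene Cluster-12235.44259 stood at 432, 285 and 389.5 CPM in fruits and 0.338, 0.187 and 0.117 CPM in leaf buds, a log2 fold change of 10.70 ± 0.28 (SE) with an adjusted p of 1.45e-16. Another CAD unigene, Cluster-12235.60197, was lower at 66.3, 59.1 and 59.9 CPM in fruits and 165, 124 and 101 CPM in leaf buds, a log2 fold change of -1.07 ± 0.14 (SE) that came to -0.84, and no longer a call, without leaf bud library 1. Shikimate hydroxycinnamoyltransferase (HCT), an acyl transferase of the same route, had 7 of 13 unigenes higher and 4 lower, from Cluster-12235.44963 at 32, 24.9 and 36.9 CPM in fruits and 0.0751, 0.112 and 0 CPM in leaf buds to Cluster-12235.19008 at 0.0603, 0 and 0.155 CPM in fruits and 0.826, 1.05 and 4.15 CPM in leaf buds. The low value of Cluster-12235.19008 leaned on leaf bud library 3, without which its log2 fold change was -3.61 in place of -4.73. The 2 unigenes of the hydroxylase CYP98A, the next enzyme after HCT, were both lower, at -1.59 and -2.34.

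Beta-glucosidase, which frees aglycones from their sugars, had 7 of 8 higher and none lower, led by Cluster-12235.43552 at 154, 79.5 and 117 CPM in fruits and 0.113, 0.225 and 0 CPM in leaf buds, a log2 fold change of 9.93 ± 0.35 (SE). Peroxidase, which couples phenolic radicals, had 7 of 14 higher and 1 lower. These enzyme names come in large part from rows that the study reported for their change, so the family counts are no independent evidence of a direction. The quinone reductase wrbA Cluster-12235.42355 stood at 2465, 1203 and 1779 CPM in fruits and 3.49, 4.12 and 3.09 CPM in leaf buds, a log2 fold change of 8.99 ± 0.29 (SE), and glutathione S-transferase Cluster-12235.42830 at 1002, 688 and 1039.8 CPM in fruits and 9.79, 8.95 and 8.46 CPM in leaf buds, a log2 fold change of 6.65 ± 0.23 (SE). Among the members held of the annotation list for phenylpropanoids, 10 of 18 tested members were higher and 3 lower, with a median of 1.32, although the summed level of the 18 was lower in fruits, at 417 to 462 CPM against 584 to 665 CPM in leaf buds.

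**Figure D3:**
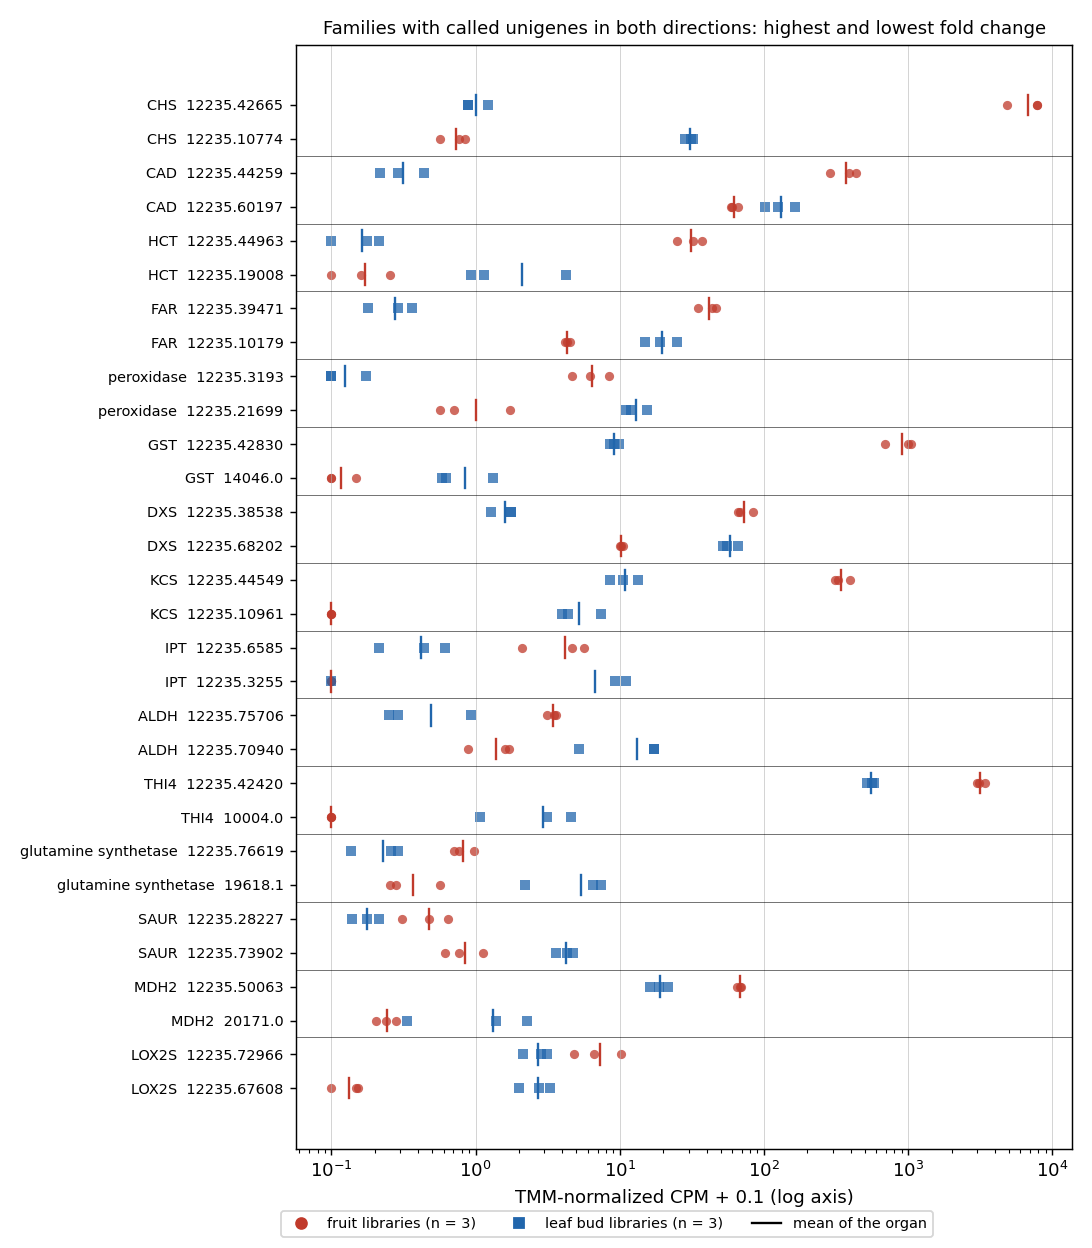
TMM-normalized CPM plus 0.1 (x axis, log scale) in each fruit library (red circles, n = 3) and leaf bud library (blue squares, n = 3) for the unigene with the highest and the one with the lowest log2 fold change in enzyme families that had calls in both directions, with a bar at each organ's mean. The upper unigene of a pair is higher in fruits and the lower one higher in leaf buds, with the widest span for chalcone synthase (CHS), and points at 0.1 are libraries with no count.

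Of the aromatic amino acid decarboxylase family, 3 unigenes carried the name AAS, which in Arabidopsis is an aromatic aldehyde synthase, and all 3 were higher in fruits. Cluster-12235.42500 stood at 337, 244 and 241 CPM in fruits and 1.24, 0.412 and 0.0392 CPM in leaf buds, a log2 fold change of 8.90 ± 0.37 (SE) with an adjusted p of 7.59e-14, and of 10.21 without leaf bud library 1, which held most of the leaf bud counts. Cluster-12235.53539 stood at 55, 59.3 and 48.7 CPM in fruits and 1.76, 1.76 and 1.8 CPM in leaf buds, a log2 fold change of 4.93 ± 0.16 (SE). Cluster-12235.45347 was uneven within fruits, at 35.9, 5.9 and 5.15 CPM against 0.0751, 0 and 0.157 CPM in leaf buds, and its log2 fold change of 7.57 ± 0.87 (SE) came to 6.09 without fruit library 1. Flavonoid 3′,5′-hydroxylase (CYP75A) Cluster-12235.31526 was high in the same fruit library, at 35.2, 9.17 and 7.68 CPM in fruits and 4.13, 2.99 and 6.54 CPM in leaf buds.

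The other 2 unigenes of the same decarboxylase name were not called. Cluster-12235.9280 stood at 0.724, 2.9 and 0.258 CPM in fruits and 1.69, 1.01 and 1.14 CPM in leaf buds, with overlapping libraries, and Cluster-12235.2697 had no count in either organ. Both were seen in roots, at means of 96.8 and 3.42 CPM. The 3 AAS unigenes belong to 11 tested unigenes that the study's annotation puts into 5 complete lists at once, so the calls of the anthocyanin (3 higher and 1 lower of 12), flavone and flavonol (8 and 0 of 18), isoflavonoid (5 and 1 of 16), indole alkaloid (3 and 0 of 11) and betalain (5 and 1 of 16) lists share these 3. Of the 2 tested unigenes of acridone alkaloid biosynthesis, a route typical of the citrus family, Cluster-12235.2983 was higher, at 4.34, 5.24 and 4.59 CPM in fruits and 0.188, 0.112 and 0.352 CPM in leaf buds, though its mean in roots was 53.3 CPM.

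Sugar genes gave large changes in both directions. Acid invertase Cluster-12235.42845, which splits sucrose, stood at 34.3, 35.9 and 34.7 CPM in fruits and 0.901, 0.374 and 0.431 CPM in leaf buds, a log2 fold change of 5.92 ± 0.27 (SE). Galactinol synthase Cluster-12235.42579, the first enzyme towards raffinose sugars, stood at 730.1, 769 and 761 CPM in fruits and 10.1, 10.3 and 18.4 CPM in leaf buds, a log2 fold change of 5.86 ± 0.19 (SE), below its mean of 3087 CPM in mature leaves. That enzyme had 3 tested unigenes, 2 higher and 1 lower, the last being Cluster-12235.5378 at -2.67. Both unigenes of raffinose synthase were lower, at -2.35 and -3.74, and both of stachyose synthase were higher, at 3.62 and 4.46. Both fructokinase unigenes were lower, at -3.57 and -4.75, as were all 4 tested unigenes of alpha-galactosidase. Of the members held of the starch and sucrose list, 5 of 16 tested members were higher and 4 lower, with a median of 0.17 that turned to -0.20 under library totals alone. The unigenes and enzymes named in this paragraph were picked out after their values had been seen.

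The study's row of hormone signalling unigenes lower in fruits held 10 members, and all 10 were lower, with a median log2 fold change of -3.26, again on the libraries by which the row was chosen. All 4 named unigenes of the auxin-induced repressor family AUX/IAA and all 5 of the auxin importer AUX1/LAX were lower, and these carry a name only through pathway rows that the study chose for an organ pattern in these libraries, so the counts are no independent evidence of a direction. Cluster-12235.36768 of AUX/IAA stood at 0.784, 0.702 and 0.825 CPM in fruits and 56.3, 59.7 and 77 CPM in leaf buds, a log2 fold change of -6.38 ± 0.20 (SE) with an adjusted p of 1.85e-15. Cluster-12235.71076 of AUX1/LAX stood at 0.422, 0.328 and 0.464 CPM in fruits and 12.8, 12.9 and 10.5 CPM in leaf buds, a log2 fold change of -4.89 ± 0.25 (SE). Both auxin response factor unigenes were lower as well, at -1.74 and -3.52.

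Enzymes of auxin synthesis and the auxin families SAUR and GH3 were picked out after their values had been seen. TAA1, which makes the auxin precursor from tryptophan, had 1 unigene, Cluster-12235.70681, at 0.241, 0.0468 and 0.155 CPM in fruits and 3.6, 3.07 and 2.27 CPM in leaf buds, a log2 fold change of -4.35 ± 0.47 (SE). YUCCA, which turns that precursor into auxin, had 2 of 3 unigenes lower, and Cluster-12235.6192 stood at 0.121, 0.234 and 0.206 CPM in fruits and 16.2, 18.1 and 12.5 CPM in leaf buds, a log2 fold change of -6.31 ± 0.33 (SE) with an adjusted p of 2.48e-12. Among the early auxin genes SAUR, 4 of 6 tested were lower and 1 higher, Cluster-12235.28227, which had under 1 CPM in every library and lost its call without fruit library 1 or 2 or leaf bud library 1 or 3. GH3, which conjugates auxin, had 1 of 2 higher.

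Cytokinin genes were not of 1 direction. The type-A response regulator Cluster-12235.72047 stood at 5.19, 4.82 and 5.67 CPM in fruits and 33.7, 37.8 and 54.3 CPM in leaf buds, a log2 fold change of -3.0 ± 0.19 (SE). Cytokinin oxidase (CKX), which breaks cytokinins down, had 2 unigenes, both lower, and Cluster-12235.71220 stood at 4.7, 3.84 and 4.38 CPM in fruits and 42.2, 52.2 and 33.7 CPM in leaf buds, a log2 fold change of -3.31 ± 0.18 (SE). Of the 4 unigenes of isopentenyltransferase (IPT), which makes cytokinins, 2 were higher and 1 lower. Cluster-12235.6585 stood at 5.55, 4.59 and 2.01 CPM in fruits and 0.338, 0.112 and 0.509 CPM in leaf buds, a log2 fold change of 3.64 ± 0.35 (SE). The lower one, Cluster-12235.3255, had no count in fruits but also none in leaf bud library 3, with 10.8, 9.13 and 0 CPM in the leaf bud libraries, so that the organs overlapped.

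The light signalling factor PIF4 had 2 unigenes, both lower, with Cluster-12235.72330 at 0.965, 0.936 and 0.67 CPM in fruits and 15.9, 14.1 and 16.4 CPM in leaf buds, a log2 fold change of -4.17 ± 0.15 (SE). Ornithine decarboxylase Cluster-12235.12056, which makes the polyamine precursor putrescine, stood at 1.57, 1.26 and 1.39 CPM in fruits and 139.9, 120.3 and 107 CPM in leaf buds, a log2 fold change of -6.45 ± 0.20 (SE) with an adjusted p of 1.91e-15. In both cases every fruit library lay far below every leaf bud library. The 17 tested members held of the annotation list for hormone signalling, which was not drawn for a pattern, gave 2 higher and 3 lower, shares close to those over all unigenes.

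Brassinosteroid biosynthesis was the complete annotation list with the largest share of unigenes lower in fruits, at 10 of 16, with 2 higher and a median log2 fold change of -1.33. The 10 spanned a wide range of levels and changes. Cluster-12235.2505 stood at 0.0603, 0 and 0.0515 CPM in fruits, on 2 counts in all, and 4.39, 4.94 and 4.07 CPM in leaf buds, a ratio of fruits to leaf buds of 0.00779 with an exact counting interval from 0.00094 to 0.0284 at a confidence of 0.95. Cluster-12235.11596, annotated as CYP734A1, which in Arabidopsis inactivates brassinosteroids rather than making them, stood at 0.905, 0.608 and 0.618 CPM in fruits and 8.44, 9.1 and 6.89 CPM in leaf buds, a log2 fold change of -3.53 ± 0.25 (SE). Higher in fruits were Cluster-12235.5951 at 4.7, 3.6 and 10.05 CPM in fruits and 1.31, 0.898 and 0.705 CPM in leaf buds and the scarcer Cluster-12235.5950. The summed level of the list was 50.6 to 63.0 CPM in fruits, 97.7 to 107 CPM in leaf buds, 79.5 to 82.5 CPM in mature leaves, 72.6 to 87.4 CPM in stems and 33.2 to 37.4 CPM in roots.

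DNA replication had 12 of the 19 tested members held lower in fruits and none higher, with a median of -1.28. Cluster-12235.71089 stood at 7.06, 7.77 and 7.16 CPM in fruits and 183, 195 and 149.6 CPM in leaf buds, a log2 fold change of -4.58 ± 0.14 (SE) with an adjusted p of 1.07e-15. Cluster-12235.23927 stood at 16.3, 20.9 and 14.4 CPM in fruits and 180.3, 187 and 138 CPM in leaf buds, a log2 fold change of -3.29 ± 0.14 (SE). The summed level of the 19 was 146 to 155 CPM in fruits and 622 to 816 CPM in leaf buds, with stems between at 350.1 to 374 CPM and mature leaves and roots at 118 to 152 CPM. The 7 members that were not called reached up to a log2 fold change of 0.53, so the list did not move as a whole. DNA end-joining, a repair route, had 1 of 13 tested unigenes lower, Cluster-12235.78215 at -1.08, or -0.91 and no call without leaf bud library 3, and none higher.

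The ribosome lists were mixed. In the part held of the ribosome list 4 of 10 tested members were lower and 1 higher, and in that of ribosome biogenesis 1 of 15 was higher and none was lower, with a median of -0.34. Lipoic acid metabolism, a small route of mitochondria and plastids, had no call among its 10 tested unigenes, with log2 fold changes from -0.63 to 0.72, and neither had the 5 tested unigenes of other O-glycan biosynthesis. The ganglio series list gave 1 higher and 2 lower of 6. Over the 12 complete lists together, 91 of 117 unigenes were tested, 20 were higher and 18 lower.

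**Figure D4:**
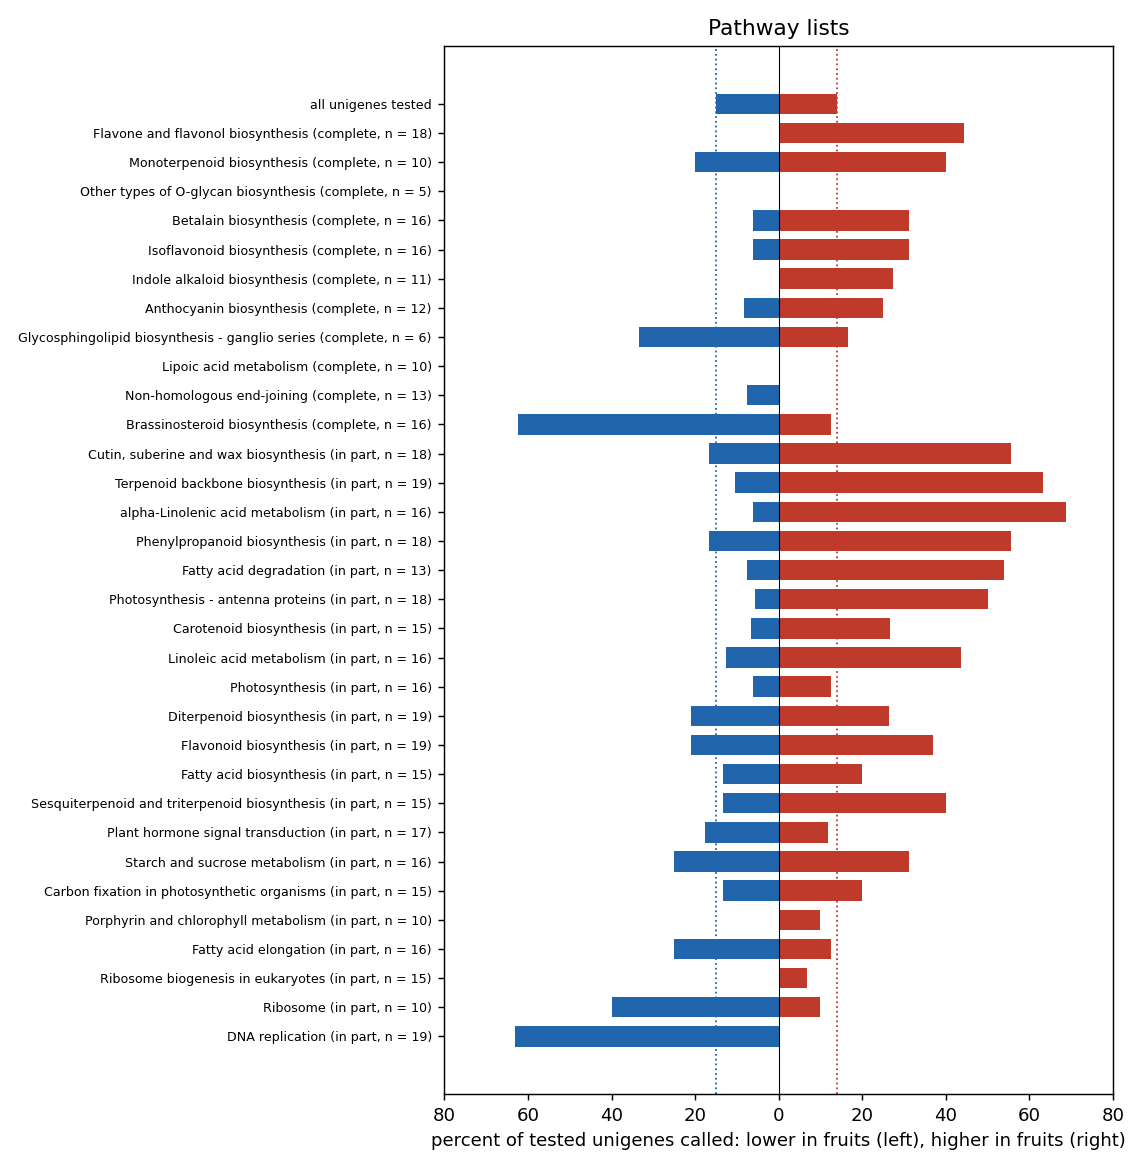
Percent of the tested unigenes of each annotation list that were called lower in fruits (blue, left) and higher in fruits (red, right), with the number tested in brackets and whether the list was held whole or in part; dotted lines mark 15.1% lower and 13.9% higher over all unigenes. DNA replication and brassinosteroid biosynthesis reach furthest to the left, and the alpha-linolenic acid and terpenoid backbone lists furthest to the right.

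Unigenes outside the largest assembly cluster, numbered 12235, leaned to the leaf buds. Of the 53623 tested in that cluster, 13.7% were higher and 13.6% lower in fruits, against 17.4% and 36.9% of the 3865 in other clusters. The 1425 lower ones outside the cluster had a median of 1.17 CPM in leaf buds, and 272 of them had no count in fruits. Enzyme names among them were those of general metabolism. Alpha-galactosidase Cluster-10477.0 had no count in fruits and 2.93, 1.16 and 3.41 CPM in leaf buds, at least 47.5-fold lower, and thiamine thiazole synthase Cluster-10004.0 had none in fruits and 3.0, 0.973 and 4.46 CPM in leaf buds, at least 53.3-fold lower. Another thiamine thiazole synthase unigene, Cluster-12235.42420, was higher in fruits at 2985, 3425 and 3096 CPM against 518, 583 and 559 CPM, a log2 fold change of 2.52 ± 0.14 (SE).

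The leaf bud libraries were uneven for these scarce unigenes. Aldehyde reductase Cluster-6314.0 had no count in fruits and 0.525, 0.711 and 5.56 CPM in leaf buds, so that leaf bud library 3 held most of it, and its call was lost in the DESeq2 Wald test. Beta-galactosidase Cluster-6297.0 had none in fruits and 2.66, 1.09 and 1.96 CPM in leaf buds, at least 36.3-fold lower. Catalase, which removes hydrogen peroxide, had 6 of 7 tested unigenes lower and none higher, and its lowest member, Cluster-12235.72350 of the largest cluster, was at 0, 0 and 0.103 CPM in fruits and 3.15, 0.599 and 2.43 CPM in leaf buds. The catalase name was given only through pathway rows that the study chose for organ patterns in these libraries. That family count is therefore no independent evidence of a direction. What sets the unigenes outside the largest cluster apart was not tested.

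Among named enzymes with at least 20 CPM, those with the smallest change were taken as examples of little difference. Glutamine synthetase Cluster-12235.35952, which fixes ammonium, stood at 189.8, 197 and 197 CPM in fruits and 217, 270.1 and 176 CPM in leaf buds, with overlapping libraries, a log2 fold change of -0.19 ± 0.14 (SE) and an adjusted p of 0.299. Pectate lyase Cluster-12235.45873 stood at 205, 194 and 213 CPM in fruits and 143, 134 and 144 CPM in leaf buds, a log2 fold change of 0.54 ± 0.09 (SE), and the small subunit of Rubisco Cluster-12235.42084 stood at 30.04, 26.5 and 20.5 CPM in fruits and 17.6, 15.8 and 14.3 CPM in leaf buds, a log2 fold change of 0.69 ± 0.18 (SE). The last 2 had an adjusted p under the threshold (5.02e-05 and 0.00335) and libraries that did not overlap, but a change under the fold threshold. These unigenes do not stand for their families. Of 3 tested Rubisco small subunit unigenes, Cluster-12235.42921 was called higher, at 1.46, and Cluster-12235.62198 was at -0.18. Glutamine synthetase had 1 higher and 2 lower of 6 tested, and pectate lyase had 1 lower and none higher of 3. Of all 479 tested unigenes with an enzyme name, 251 (52.4%) were higher and 136 (28.4%) lower, shares that reflect pathway rows which the study chose for change.

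The organ labels were checked against genes of green tissue. The summed level of the 16 photosynthesis unigenes held was 1768 to 1926 CPM in fruits and 875 to 989 CPM in leaf buds, between 7178 to 7373 CPM in mature leaves and 56.0 to 72.8 CPM in roots. The 18 antenna protein unigenes, which bind the chlorophyll of the light-harvesting complexes, summed to 6886 to 7655 CPM in fruits, 3545 to 4140 CPM in leaf buds, 19670 to 20292 CPM in mature leaves and 16.1 to 25.8 CPM in roots. Fruits were therefore above leaf buds in every library, with 9 of the 18 antenna unigenes called higher and 1 lower at a median of 0.97, and 2 of the 16 photosynthesis unigenes higher and 1 lower at a median of 0.60. Stems, at 864 to 948 CPM for photosynthesis and 4130 to 4920 CPM for antenna proteins, overlapped the leaf buds in both lists. The check therefore cannot tell leaf buds from stems. No list held marks fruit or bud tissue as such, and whether the amount of green tissue moves with any other group above was not tested.

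**Figure D5:**
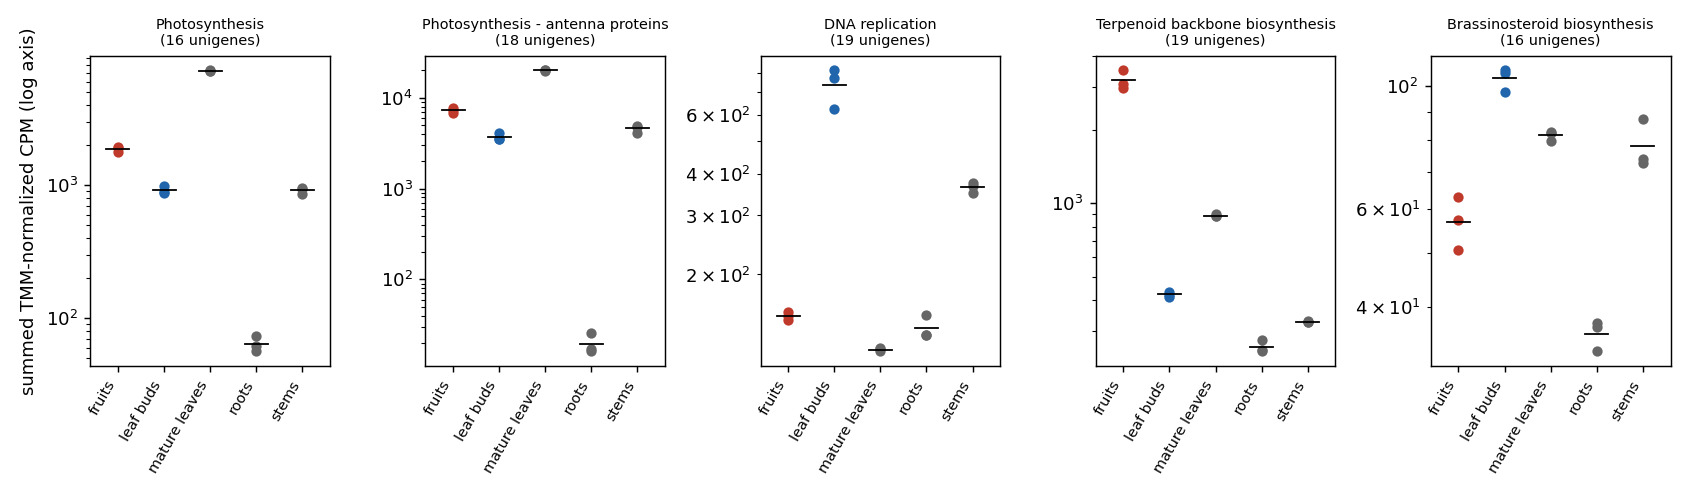
Summed TMM-normalized CPM (y axes, log scales that differ between panels) of 5 annotation lists in each library of the 5 organs, with fruits in red, leaf buds in blue, the other organs in grey and a bar at the mean of each organ's 3 libraries. Fruits lie above leaf buds for photosynthesis, antenna proteins and the terpenoid backbone and below them for DNA replication and brassinosteroid biosynthesis, without overlap in any panel.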

How the data were processed

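RNA was measured by Illumina sequencing in 15 libraries of 5 organs, 3 per organ. The authors removed reads with adapters, unknown bases or low quality, assembled the rest with Trinity and deposited, for each unigene in each library, an estimated count with its FPKM. The aligner and the counting program are not given in the sources used here. Estimated counts, which held fractions, were rounded to whole numbers, and FPKM values were used as deposited for levels per length only.

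All 15 libraries entered 1 quasi-likelihood fit with a mean per organ in edgeR 4.0.16 (R 4.3.3), which left 10 residual degrees of freedom. Unigenes were kept by filterByExpr at a minimum count of 10 and a minimum total of 15, scaled by TMM, and adjusted by Benjamini-Hochberg. The standard error (SE) of a log2 fold change was its size divided by the square root of F. On simulated counts for this comparison (53869 unigenes), 50 of 50 unigenes raised 4-fold and 49 of 50 lowered 4-fold were called, with 3 unchanged unigenes called. The simulation changed only better counted unigenes, gave every unigene the same dispersion of 0.0223 and let the organs differ in nothing else. Recovery of scarce unigenes, and false calls under the real spread and composition, were not tested by it. Replicate numbers were not used to pair the libraries in the main fit. Deviations from the organ means correlated at 4e-04, 0.0434 and 0.0118 between same-numbered fruit and leaf bud libraries, none over 0.1. Between libraries of unlike number the values ran from -0.0925 to 0.0731. Such values, taken over all unigenes tested, show no broad shared effect of the number. They cannot show an effect limited to some unigenes, nor whether same-numbered libraries came from the same plants. Intervals and bounds cover counting error only.

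Unigenes named in the text are those with primers or TAIR names, the 10 highest and 10 lowest named enzymes among non-overlapping calls, up to 3 called members of each complete list, the 2 highest and 2 lowest calls of all, the 3 most abundant per organ, the 4 least changed named enzymes at 20 CPM or more, and the highest and lowest members of families of 4 or more called both ways. Others were picked after their values were seen, as were the carotenoid, sugar, hormone, oxylipin and DNA replication examples. Of the families named by this rule, 1 is not reported here. Members and lists were chosen with earlier results of these data known. Alternatives were DESeq2 (1.42.0) size factors and Wald test, library totals, other filters, an exact test, the 6 libraries alone, a replicate block, other thresholds and leaving out each library. Figures were drawn with matplotlib 3.10.9.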

Additional observations from a re-analysis of the deposited data

How the results depend on the processing

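Of the 16707 DEGs (8016 higher and 8691 lower in fruits), a log2 fold change threshold of 2 left 8972 (3927 higher and 5045 lower), and the adjusted p alone gave 27551 (14053 higher and 13498 lower). Scaling by library totals alone gave 13098 lower. That scaling leaves out the TMM factors, which were 0.867 to 0.901 in the fruit libraries and 1.115 to 1.179 in the leaf bud libraries. Why these factors differ between the organs was not tested. Called members of the complete lists numbered 38, and 24 at a threshold of 2. Leaving out 1 library at a time gave 16184 to 18432 DEGs, 7873 to 8613 higher and 8096 to 10038 lower, 37 to 40 called list members, and 133 to 136 of the 142 named unigenes called, against 136. With the replicate number as a block in all 15 libraries, 7920 were higher and 8471 lower, and in the 6 libraries alone 7190 and 7802. Without a filter 9184 were higher and 11143 lower, and the DESeq2 Wald test gave 7930 and 8327. Among the named unigenes, 3364 values kept their direction and side of the threshold, 25 lost the call and 2 changed sign, namely Cluster-12235.35952 without leaf buds replicate 2 (0.01 in place of -0.19, and -0.3 to 0.01 over all libraries left out) and Cluster-12235.40863 under library totals alone (-0.18 in place of 0.19), neither of which was called. Calls of unigenes with few counts are limited by depth.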

Other observations

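Leaf bud library 1 held 53 unigenes with 20 or more counts that had no count in the other libraries, with 2341 counts in all, and 49 of the 53 lay outside the largest assembly cluster. Mitochondrial enzyme names with counts in that library and hardly elsewhere were COX1 (146 counts), COX2 (76 counts), CYTB (66 counts, and 2 in stem library 1), COX3 (54 counts) and ND4 (28 counts). What these transcripts come from was not tested.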
